A study of Homo sapiens with 6 samples.

Results

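Genes of transforming growth factor beta (TGF-beta), activin and bone morphogenetic protein (BMP) signalling were followed in NF1-C2S transfected and wild type MDA-MB-436 cells. The set of 51 genes was taken from a written list of ligands, storage and processing proteins, receptors, antagonists, SMADs, ligases and repressors, and targets. Of these, 50 had at least 1 probe set in the platform annotation used, with 150 probe sets in all among the 54613 that were tested. The receptor BMPR1A was not analysed here. The annotation gave a further gene, ID2B, beside ID2 for 1 of the 150 probe sets.

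RNA was measured on 6 arrays, 3 of NF1-C2S transfected cells and 3 of wild type cells. MDA-MB-436 is an established human breast tumour line, and the transfected cells carry an NF1-C2 expression plasmid after stable transfection, NF1-C2 being an isoform of nuclear factor I-C, a DNA-binding factor (gene NFIC). Both groups were grown in the same serum- and insulin-containing medium, the labels name no cells with an empty plasmid, and they do not say whether the transfected cells were a clone or a pool. Separate cultures are not mentioned for the replicates, and the p-values therefore measure spread between these arrays that may be technical.

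Ligands of this family are secreted as dimers that bring together type I and type II receptor kinases. TGF-beta and activin receptors phosphorylate SMAD2 and SMAD3, BMP receptors phosphorylate SMAD1 and SMAD5, and each kind of SMAD enters the nucleus with SMAD4 to regulate target genes. Secreted antagonists hold ligands away from receptors, and SMAD6, SMAD7, BAMBI and PMEPA1 are inhibitors whose own genes the pathways induce. In breast epithelium, TGF-beta restrains growth and in tumour cells it is known for promoting mesenchymal features and invasion.

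The brightest NFIC probe set read 8.25 ± 0.04 on the log2 scale in transfected cells and 8.47 ± 0.06 in wild type cells (SD, n = 3 each; limma adjusted p = 0.0820), and none of its 4 probe sets passed the threshold. The labels do not say whether any of them reads the message of the plasmid, so the direction of each result rests on the labels. Array values correlated at 0.992 to 0.997 within the transfected group, 0.996 within the wild type group and 0.971 to 0.976 between the groups. The labels call the cells epithelial. Of 8 epithelial markers, CDH1 (E-cadherin), KRT19 and ESRP1 were dim in both groups. EPCAM was just above the dim level in transfected cells (4.96 and 5.71 in transfected and wild type cells), as was CLDN4 (4.85 in transfected cells). KRT18 was high (11.62 and 12.55), KRT8 read 6.64 and 6.59, and KRT7 read 7.98 in wild type cells. KRT18 and KRT7 were called lower (log2 changes -0.93 and -0.98, limma adjusted p = 0.000209 and 0.000113), and the other epithelial markers were not called. Of 5 mesenchymal markers, SPARC was dim in both groups. VIM read 13.01 and 13.54, CDH2 9.37 and 9.19 and FN1 7.44 and 10.21 in transfected and wild type cells. VIM and FN1 were called lower (log2 changes -0.525 and -2.77, limma adjusted p = 0.00132 and 5.84e-06). SPARC, CDH2 and COL1A1, which read 6.44 in transfected cells (log2 change -0.16), were not called. Of 8 measured markers of leukocytes and blood vessels, 6 were dim in both groups, and CD14 rose by 0.82 (limma adjusted p = 0.0115). A probe set is called dim where its mean lay under 4.82, the median of all values, since the files give no detection calls.

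Promoter sequence is shown for the members whose change was at least 4-fold (log2 change of 2 or more), all of which had windows in the table used: INHBA, BAMBI and PMEPA1, lower in transfected cells, and GREM1, higher in them. Each line gives 300 bases of RefSeq sequence of build GRCh38.p14, 5′ to 3′ on the strand of the gene, from 250 bases before to 50 after the first start listed. Capitals mark the SMAD-binding motifs CAGAC and GGCGCC and the nuclear factor I motif TTGGC, each read on both strands.
INHBA, chr7:41703041-41703340, - strand: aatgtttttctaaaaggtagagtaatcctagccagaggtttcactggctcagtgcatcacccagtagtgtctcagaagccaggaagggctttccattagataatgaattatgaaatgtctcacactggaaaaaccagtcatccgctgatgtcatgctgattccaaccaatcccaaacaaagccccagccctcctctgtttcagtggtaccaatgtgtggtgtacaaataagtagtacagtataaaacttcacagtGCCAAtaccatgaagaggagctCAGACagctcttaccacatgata
BAMBI, chr10:28677271-28677570, + strand: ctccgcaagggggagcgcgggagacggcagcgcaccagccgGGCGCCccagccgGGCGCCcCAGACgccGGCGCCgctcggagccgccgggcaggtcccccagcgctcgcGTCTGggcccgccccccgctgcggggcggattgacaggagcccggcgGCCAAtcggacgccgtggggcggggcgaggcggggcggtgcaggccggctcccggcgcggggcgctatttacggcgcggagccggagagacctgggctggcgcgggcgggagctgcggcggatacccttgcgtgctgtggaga
GREM1, chr15:32717754-32718053, + strand: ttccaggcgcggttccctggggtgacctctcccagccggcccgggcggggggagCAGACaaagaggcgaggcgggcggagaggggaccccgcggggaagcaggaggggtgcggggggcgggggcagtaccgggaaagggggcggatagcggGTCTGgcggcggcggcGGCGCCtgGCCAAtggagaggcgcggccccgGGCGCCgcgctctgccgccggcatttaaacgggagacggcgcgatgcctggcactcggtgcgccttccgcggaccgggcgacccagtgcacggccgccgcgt
PMEPA1, chr20:57711423-57711722, - strand: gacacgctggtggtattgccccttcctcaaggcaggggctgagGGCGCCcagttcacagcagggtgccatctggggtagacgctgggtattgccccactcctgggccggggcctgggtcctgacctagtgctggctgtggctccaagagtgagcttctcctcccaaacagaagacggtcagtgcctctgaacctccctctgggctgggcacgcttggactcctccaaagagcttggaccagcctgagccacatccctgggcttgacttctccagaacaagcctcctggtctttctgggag

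The INHBA window held 1 CAGAC, 1 TTGGC and no GGCGCC. The GC-rich BAMBI window held 2 CAGAC, 3 GGCGCC and 1 TTGGC, and the GREM1 window 2, 2 and 1. The PMEPA1 window, the first of 4 listed for that gene, held 1 GGCGCC and neither of the other motifs. Such matches are common. CAGAC was found in 44 of 84 windows of the members (52.4%) and in 45.3% of all 35116 windows, GGCGCC in 21 (25%) and 19.2%, and TTGGC in 40 (47.6%) and 45.6%. The 84 windows belonged to 44 members, and windows of 1 gene can overlap. TTGGC and GGCGCC matches can share bases. None of the 84 windows held the full nuclear factor I palindrome, TTGGC and GCCAA with a gap of 5 bases, which stood in 10 of all windows.

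Among the called members, ligands were lower in transfected cells, antagonists were lower except GREM1, and most SMADs were higher. Each gene was read by its brightest probe set in a limma fit over all probe sets. Of 50 members, 29 passed an adjusted p of 0.05 (58.0%), where 29.0% of all 19775 genes did. The members were chosen with earlier results of these data known, so this share describes them and is not independent support. Lower expression was called for 18 members (36.0%, against 15.4% of all genes) and higher expression for 11 (22.0%, against 13.6%). A change of at least 2-fold was called for 14 members (28.0%, against 6.73% of all genes), of which 11 were lower and 3 higher. Members were seldom dim: 5 of 50 were dim in both groups, while 33.6% of all genes were. Over the 150 probe sets, 23 were higher and 34 lower (38.0% called, against 22.2% of all probe sets, 10.8% higher and 11.4% lower), and no member had probe sets called in opposite directions. The groups did not overlap in 31 members, which were the 29 called ones with ENG and NOG, and did not overlap in 43.0% of all genes. The median log2 change over members was -0.12, beside 0.0 over all genes.

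**Figure D1:**
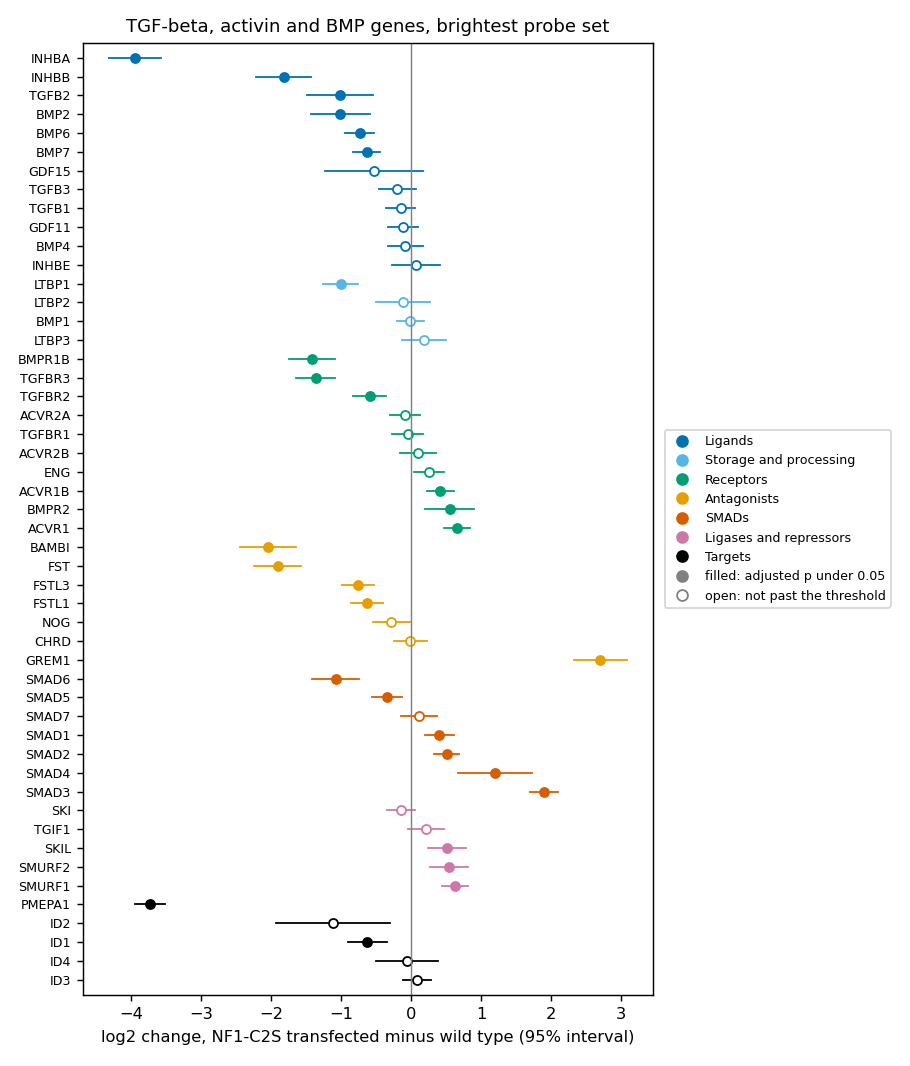
Log2 change (NF1-C2S transfected minus wild type) of the brightest probe set of 50 member genes, with its 95% interval, coloured by role. Points are filled where the adjusted p was under 0.05. INHBA and PMEPA1 lie lowest, at -3.94 and -3.73, and GREM1 and SMAD3 highest, at 2.70 and 1.90.

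Ligand genes were lower or did not pass. Of 12 ligands, 6 fell, 0 rose and 6 did not pass, with a median log2 change of -0.58. INHBA, which encodes the beta A chain of activin A, read 5.14, 5.78 and 5.24 on the log2 scale in the 3 transfected arrays, against 9.29, 9.37 and 9.32 in the wild type arrays. Every transfected array lay far below every wild type array, by at least 3.51, and the log2 change was -3.94 (SE 0.16; limma adjusted p = 5.34e-06), a 15.3-fold decrease. In bulk RNA of a line, fewer cells that make a message and less of it per cell cannot be told apart. The other INHBA probe sets fell by 3.38 and 1.04, and the probe set with the smaller fall was dim in both groups. INHBB, the beta B chain, read 5.35, 4.64 and 5.00 in transfected cells, against 6.94, 6.74 and 6.77 in wild type cells (log2 change -1.82, SE 0.17, limma adjusted p = 0.000193). The groups were again apart, by 1.39, while the transfected arrays spanned 0.71. INHBE, an activin chain made mainly in liver, was dim at 3.17 and 3.10 in transfected and wild type cells and did not pass (adjusted p = 0.828).

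Among the TGF-beta ligands, TGFB2 was called and TGFB1 and TGFB3 were not. TGFB2 read 6.13, 6.12 and 5.43 in transfected cells, against 6.94, 7.11 and 6.67 in wild type cells (log2 change -1.01, SE 0.20, limma adjusted p = 0.00849). Of its other 4 probe sets, 3 fell (log2 changes -0.67, -1.36 and -1.39), and the fourth was dim in both groups and read 0.0033. TGFB1, the most widely expressed TGF-beta, averaged 7.99 ± 0.13 in transfected cells and 8.14 ± 0.01 in wild type cells (log2 change -0.15, 95% interval -0.36 to 0.05; adjusted p = 0.310). TGFB3 gave -0.20 (95% interval -0.46 to 0.06). A fall of the size seen for TGFB2 lies outside both intervals. TGFB3 averaged 5.24 in transfected and 5.44 in wild type cells, not far above the dim level, where differences between signals are shrunk. Its other probe set was dim in both groups and gave 0.11. For TGFB3 the interval therefore does not exclude such a fall.

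BMP2, BMP6 and BMP7, ligands of the BMP receptors, fell. BMP2 read 4.03, 4.57 and 4.72 in transfected cells, all dim, against 5.24, 5.51 and 5.61 in wild type cells (log2 change -1.01, SE 0.18, limma adjusted p = 0.00532). BMP7 averaged 6.67 ± 0.10 in transfected cells and 7.31 ± 0.05 in wild type cells, a log2 change of -0.64 (limma adjusted p = 0.00103). Its probe sets differed in size: 2 others fell by 1.64 and 0.97, and the remaining one gave -0.23 (adjusted p = 0.0798). BMP6 averaged 4.85 ± 0.09 in transfected cells, just above the dim level, and 5.58 ± 0.09 in wild type cells (log2 change -0.74, limma adjusted p = 0.000619). Its other probe sets were dim in both groups, gave -0.12 and -0.21 and did not pass. Genes beside BMP6 on chromosome 6 were lower too, with a median of -0.32, and with their shift subtracted BMP6 gave -0.30 (adjusted p = 0.0930). BMP4 gave -0.08 and GDF11, a relative of myostatin, gave -0.12, and neither passed.

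GDF15, a stress-induced member of the family, spread widely within both groups. It read 5.28, 5.20 and 5.91 in transfected cells, against 5.61, 5.71 and 6.67 in wild type cells (log2 change -0.53, SE 0.30, adjusted p = 0.296). Replicate 3 was the highest in both groups, and each transfected array was below the wild type array of the same number. With the replicate number as a block, the same change passed (limma adjusted p = 0.0109). The other 2 GDF15 probe sets were dim in both groups and each read 0.03.

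**Figure D2:**
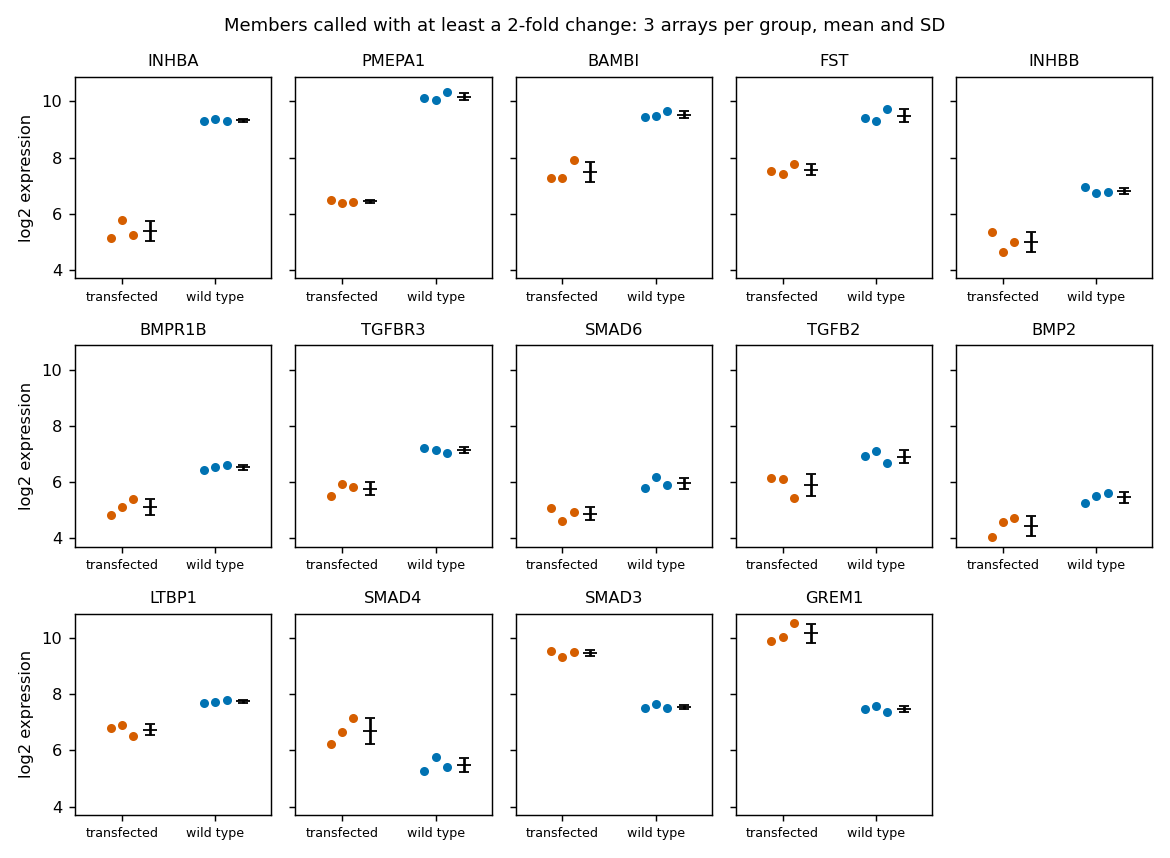
Log2 expression of the 14 members called with at least a 2-fold change, in 3 NF1-C2S transfected arrays (left in each panel) and 3 wild type arrays (right); bars give the mean and SD. The groups do not overlap in any panel, and the widest spread within a group is that of SMAD4 in transfected cells, 6.22 to 7.15.

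Of the 4 storage and processing genes, LTBP1 fell and the other 3 did not pass. LTBP1, which anchors latent TGF-beta in the matrix, read 6.78, 6.89 and 6.52 in transfected cells, against 7.69, 7.72 and 7.81 in wild type cells (log2 change -1.01, SE 0.11, limma adjusted p = 0.000385). Its other probe set fell by 0.54. The relatives LTBP2 and LTBP3 gave -0.12 and 0.18, and BMP1, a protease of procollagen and of the BMP antagonist chordin rather than a ligand, gave -0.01 (95% interval -0.21 to 0.18). None of the 7 BMP1 probe sets passed.

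Receptor genes changed in either direction. The 10 that were measured comprised 3 that rose, 3 that fell and 4 that were not called, with a median of 0.02. The falls with at least a 2-fold change were those of BMPR1B and TGFBR3. BMPR1B, a type I receptor for BMPs, read 4.84, 5.10 and 5.40 in transfected cells, against 6.44, 6.54 and 6.62 in wild type cells (log2 change -1.42, SE 0.14, limma adjusted p = 0.000262). TGFBR3, or betaglycan, a co-receptor that presents TGF-beta 2 to the signalling receptors, read 5.52, 5.94 and 5.84 in transfected cells, against 7.23, 7.14 and 7.03 in wild type cells (log2 change -1.37, SE 0.12, limma adjusted p = 0.000158). Both genes had a further probe set that fell, by 1.27 and 0.96, and the third BMPR1B probe set was dim in both groups. TGFBR2, the type II receptor of TGF-beta, averaged 8.52 ± 0.11 in transfected cells and 9.12 ± 0.14 in wild type cells (log2 change -0.60, limma adjusted p = 0.00376). Its neighbours on chromosome 3 had a median of -0.34, and with that shift subtracted TGFBR2 gave -0.26 (adjusted p = 0.140).

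ACVR1 and ACVR1B, type I receptors for activins and some BMPs, were called higher. ACVR1 averaged 8.60 ± 0.03 in transfected cells and 7.95 ± 0.10 in wild type cells (log2 change 0.65, limma adjusted p = 0.000833). ACVR1B, the main type I receptor of activin, averaged 7.20 ± 0.12 in transfected cells and 6.78 ± 0.02 in wild type cells (log2 change 0.42, limma adjusted p = 0.00927), and of its other 5 probe sets 1 rose, by 0.46, and 4 were dim in both groups. The mean over the ACVR1B probe sets did not pass (0.20, adjusted p = 0.0787). BMPR2, the type II receptor of BMPs, was called at 0.55 (limma adjusted p = 0.0351), but its 5 other probe sets gave -0.35 to 0.12 and the mean over all of them -0.0028. That call ended without wild type replicate 1 or 2 (adjusted p = 0.108 and 0.119), without transfected replicate 2 or 3 (0.115 and 0.0727) and with the neighbours' shift subtracted (0.185).

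The activin type II receptors ACVR2A and ACVR2B gave -0.09 and 0.09, and TGFBR1, the type I receptor of TGF-beta, gave -0.05 (95% interval -0.27 to 0.17). Another TGFBR1 probe set gave -0.61 and did not pass (limma adjusted p = 0.0934), and the remaining one, dim in both groups, gave 0.11. ENG, or endoglin, an accessory receptor, gave 0.25 (adjusted p = 0.0888) with groups that did not overlap. It passed under 3 of the 17 alternatives, described below, that were run for it. One was the fit with dim probe sets left out (limma adjusted p = 0.0459). The other ENG probe set gave -0.09.

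Most antagonists fell, and GREM1 rose. The 7 antagonists comprised 4 that fell, 1 that rose and 2 that were not called. BAMBI, a membrane pseudoreceptor without a kinase domain, read 7.29, 7.27 and 7.91 in transfected cells, against 9.43, 9.50 and 9.67 in wild type cells (log2 change -2.04, SE 0.17, limma adjusted p = 0.000129), a 4.13-fold decrease. FST, or follistatin, which binds activins, read 7.52, 7.42 and 7.79 in transfected cells, against 9.40, 9.31 and 9.75 in wild type cells (log2 change -1.91, SE 0.14, limma adjusted p = 7.01e-05). All 3 FST probe sets fell, the other 2 with log2 changes of -2.06 and -2.36. FSTL3, a follistatin relative that also binds activin, averaged 6.94 ± 0.17 in transfected cells and 7.69 ± 0.03 in wild type cells (log2 change -0.75, limma adjusted p = 0.00104). FSTL1, a more distant secreted relative, fell by 0.63 from a high level (11.32 ± 0.15 in transfected cells and 11.95 ± 0.08 in wild type cells; limma adjusted p = 0.00257). Its other 2 probe sets gave 0.20 and -0.25, and the mean over the 3 did not pass (adjusted p = 0.0945).

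GREM1, or gremlin, a secreted protein that binds BMP2 and BMP4, read 9.89, 10.05 and 10.54 in transfected cells, against 7.46, 7.57 and 7.36 in wild type cells. The lowest transfected array was thus more than 2 log2 units above the highest wild type array, and the log2 change was 2.70 (SE 0.16; limma adjusted p = 2.95e-05), a 6.48-fold increase. Its other probe set rose by 2.74. The BMP antagonists NOG and CHRD, noggin and chordin, were dim in both groups, at 3.18 and 3.47 for NOG and 4.70 and 4.71 for CHRD in transfected and wild type cells, and did not pass.

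SMAD genes were mostly higher. The 7 SMADs comprised 4 that rose, 2 that fell and 1 that was not called, with a median of 0.40. SMAD3, a transducer of TGF-beta and activin signals, read 9.52, 9.33 and 9.50 in transfected cells, against 7.51, 7.64 and 7.51 in wild type cells (log2 change 1.90, SE 0.09, limma adjusted p = 8.93e-06), a 3.72-fold increase. The spread within either group was at most 0.19, and all 4 SMAD3 probe sets rose, the others by 1.47, 0.93 and 1.08. SMAD2, which acts on the same branch, averaged 8.68 ± 0.01 in transfected cells and 8.18 ± 0.07 in wild type cells (log2 change 0.51, limma adjusted p = 0.00199). Of its 6 probe sets 3 rose, by 0.51, 0.68 and 0.74, and the others gave 0.23 to 0.32.

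SMAD4, the shared partner, read 6.22, 6.65 and 7.15 in transfected cells, against 5.26, 5.75 and 5.42 in wild type cells (log2 change 1.20, SE 0.23, limma adjusted p = 0.00705). The groups were apart by less than the spread of the transfected arrays. The other 4 SMAD4 probe sets, 3 of them dim in both groups, gave 0.06 to 0.37 and did not pass, and the brightest of those that do not end in _s_at gave 0.10 (adjusted p = 0.738). SMAD1 and SMAD5, which carry BMP signals, gave small changes of opposite sign, 0.40 and -0.35 (limma adjusted p = 0.0149 and 0.0293). The SMAD1 call ended without wild type replicate 1 or 2 or transfected replicate 2 (adjusted p = 0.0559, 0.0597 and 0.0595) and with the neighbours' shift subtracted (0.143). The SMAD5 call ended without wild type replicate 1, 2 or 3 (0.0909, 0.0999 and 0.0508) or transfected replicate 1 or 3 (0.0649 and 0.0620), and the mean over its 5 probe sets gave -0.15 (adjusted p = 0.207).

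The inhibitory SMADs differed from each other. SMAD6, an inhibitor of BMP signalling, read 5.07, 4.62 and 4.95 in transfected cells, against 5.80, 6.18 and 5.89 in wild type cells (log2 change -1.08, SE 0.14, limma adjusted p = 0.00120). The other 3 SMAD6 probe sets were dim in both groups and gave 0.16, 0.07 and -0.11, and the mean over all 4 did not pass (-0.24, adjusted p = 0.203). SMAD7, which inhibits TGF-beta signalling, gave 0.11 (95% interval -0.15 to 0.37; adjusted p = 0.614).

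**Figure D3:**
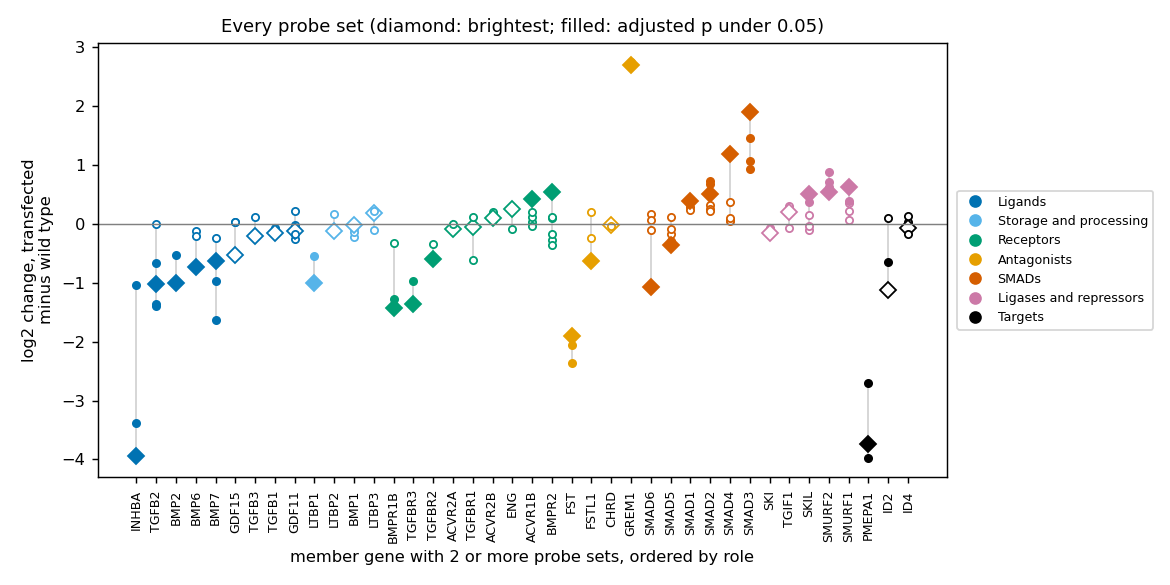
Log2 change (NF1-C2S transfected minus wild type) of every probe set of the 40 members with more than 1, ordered by role. Diamonds are the brightest probe set and filled symbols passed an adjusted p of 0.05. The probe sets of INHBA, FST, SMAD3, SMURF2 and PMEPA1, among others, are all filled and on 1 side of 0. For BMPR2, SMAD4 and SMAD6, and also for others such as TGFBR2, FSTL1, BMP6, SMAD1 and SMAD5, a single probe set is filled.

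Ligases and repressors were higher or did not pass: 3 of 5 rose and 0 fell. SMURF1 and SMURF2, ubiquitin ligases that mark SMADs and receptors for degradation, rose by 0.63 and 0.53 (limma adjusted p = 0.000912 and 0.0122). All 4 SMURF2 probe sets rose, by 0.53 to 0.89. SMURF1 averaged 8.92 ± 0.01 in transfected cells and 8.29 ± 0.10 in wild type cells, but its neighbours on chromosome 7 had a median of 0.48, and with their shift subtracted SMURF1 gave 0.12 (adjusted p = 0.312). SKIL, a SMAD-binding repressor, rose by 0.51 (limma adjusted p = 0.0150), a call that ended without transfected replicate 3 (adjusted p = 0.0554) and for the mean over its 5 probe sets (0.0986). Its relative SKI gave -0.15 and the homeobox repressor TGIF1 gave 0.21, and neither passed.

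Among the targets, PMEPA1 had the smallest adjusted p of all members. PMEPA1, a TGF-beta-induced membrane protein that binds and retains SMADs, read 6.51, 6.38 and 6.43 in transfected cells, against 10.13, 10.06 and 10.32 in wild type cells (log2 change -3.73, SE 0.09, limma adjusted p = 8.91e-07), a 13.3-fold decrease. The spread was 0.13 in transfected cells, and the other 2 probe sets fell by 3.97 and 2.71. ID1, a BMP-induced inhibitor of helix-loop-helix factors, averaged 7.13 ± 0.18 in transfected cells and 7.76 ± 0.15 in wild type cells (log2 change -0.63, limma adjusted p = 0.00645). ID2 read 4.94, 5.44 and 6.45 in transfected cells, against 6.71, 7.04 and 6.43 in wild type cells, so transfected replicate 3 lay within the wild type range. Its log2 change of -1.12 (SE 0.35) missed the threshold (adjusted p = 0.0585) and was -1.54 without that array (limma adjusted p = 0.00370). ID2 passed under 5 of the 17 alternatives run for it, and its limma adjusted p reached 0.185 under another. A further ID2 probe set fell by 0.65 and the one shared with ID2B gave 0.09, and both were dim in both groups. ID3 and ID4 were dim in both groups and gave 0.08 and -0.07.

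Other genes of the same pathways were taken from a list of 85 written with earlier results of these data known, of which 81 had a probe set. Of these 81, 12 rose and 15 fell (33.3% called, against 29.0% of all genes). Differences between roles were not tested, and since the list was made knowing results the counts by role are a description. Of 20 further intracellular components 8 rose and 2 fell, and of 19 further targets 1 rose and 11 fell, whereas 18 of 20 further ligands did not pass and 12 of those 20 were dim in both groups.

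The 3 largest falls were all of targets. IGFBP3, an insulin-like growth factor carrier, read 4.97, 4.91 and 4.78 in transfected cells, against 9.59, 9.50 and 10.44 in wild type cells (log2 change -4.96, limma adjusted p = 9.17e-06). ADAM12, a membrane metalloprotease, read 4.03, 4.80 and 4.01 in transfected cells, against 7.44, 7.73 and 7.76 in wild type cells (-3.36, limma adjusted p = 3.62e-05). For the matrix protein FN1, the values were 7.50, 7.29 and 7.53 in transfected cells, against 10.10, 10.12 and 10.42 in wild type cells (-2.77, limma adjusted p = 5.84e-06), on a probe set ending in _x_at. Another 4 FN1 probe sets, all ending in _x_at or _s_at, fell too, with log2 changes of -2.88, -3.06, -3.07 and -0.45, and the other 2 were dim in both groups and gave 0.02 and -0.15. In each of these genes the groups lay well apart. CCN2, or connective tissue growth factor, was the target that rose, averaging 8.13 ± 0.10 in transfected cells and 7.22 ± 0.41 in wild type cells (log2 change 0.91, limma adjusted p = 0.010). KLF10, COL1A1 and TAGLN, further targets named after their values were seen, gave -0.17, -0.16 and 0.0067 on their brightest probe sets and did not pass. Among the other COL1A1 probe sets, those at -1.50 and -0.52 were called lower but were dim in both groups. The remaining ones gave -0.03 and -0.13 and did not pass. The other TAGLN probe sets gave 0.58 (limma adjusted p = 0.0525) and 0.15.

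The 3 largest rises were those of RNF111, BMPER and LEMD3. RNF111, or Arkadia, a ubiquitin ligase that degrades SKIL and SMAD7, read 8.87, 8.74 and 8.93 in transfected cells, against 6.98, 7.15 and 7.09 in wild type cells (log2 change 1.77, limma adjusted p = 1.22e-05). BMPER, a secreted BMP-binding protein, averaged 4.91 ± 0.09 in transfected cells and was dim at 3.20 ± 0.22 in wild type cells (1.71, limma adjusted p = 6.03e-05). LEMD3, an inner nuclear membrane protein that binds SMADs, averaged 8.67 ± 0.03 in transfected cells and 7.72 ± 0.06 in wild type cells (0.95, limma adjusted p = 8.82e-05). The neighbours of RNF111 on chromosome 15 and of LEMD3 on chromosome 12 were higher as well, with medians of 0.64 and 0.60.

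**Figure D4:**
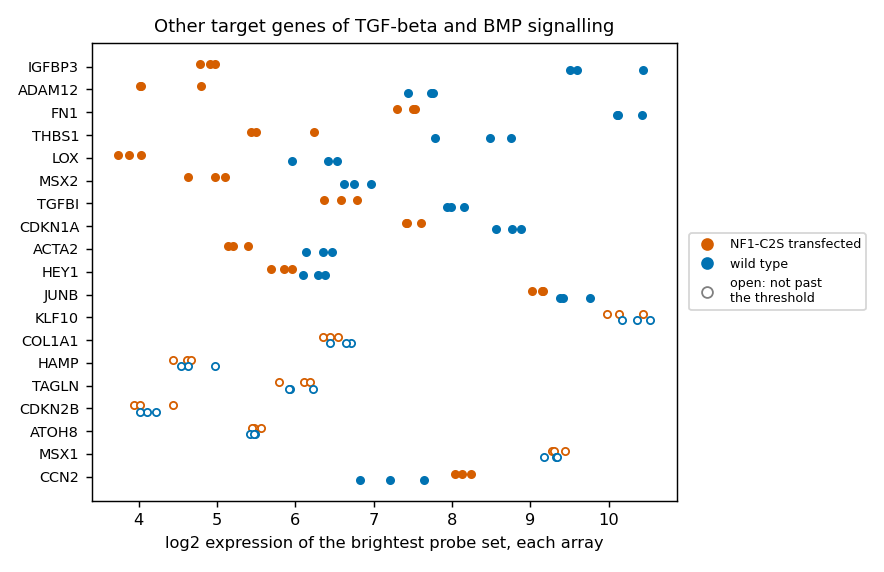
Log2 expression of 19 target genes outside the member list, in each NF1-C2S transfected array (orange, upper row of a gene) and each wild type array (blue, lower row). Filled points mark genes with an adjusted p under 0.05: 11 were lower in transfected cells, IGFBP3 by 4.96, and CCN2 was higher by 0.91.

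Each member was set beside the median log2 change of the 10 nearest measured genes on either side. This median was at least 0.25 in size for 9 of the 50 members. It was -0.43 for INHBA on chromosome 7, -0.25 for INHBB on chromosome 2, 0.33 for SMAD3 and SMAD6, which share a part of chromosome 15, 0.30 for SMAD4 on chromosome 18 and 0.42 for ID2 on chromosome 2. With the shift subtracted from each array, INHBA gave -3.45, INHBB -1.63, SMAD3 1.54, SMAD4 0.93 and SMAD6 -1.46, all still past the threshold. ID2 then gave -1.54 and passed (limma adjusted p = 0.0113). The medians beside PMEPA1, GREM1 and BAMBI were -0.05, 0.01 and -0.04. The part of these regional shifts in the members' changes was not tested beyond this subtraction.

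**Figure D5:**
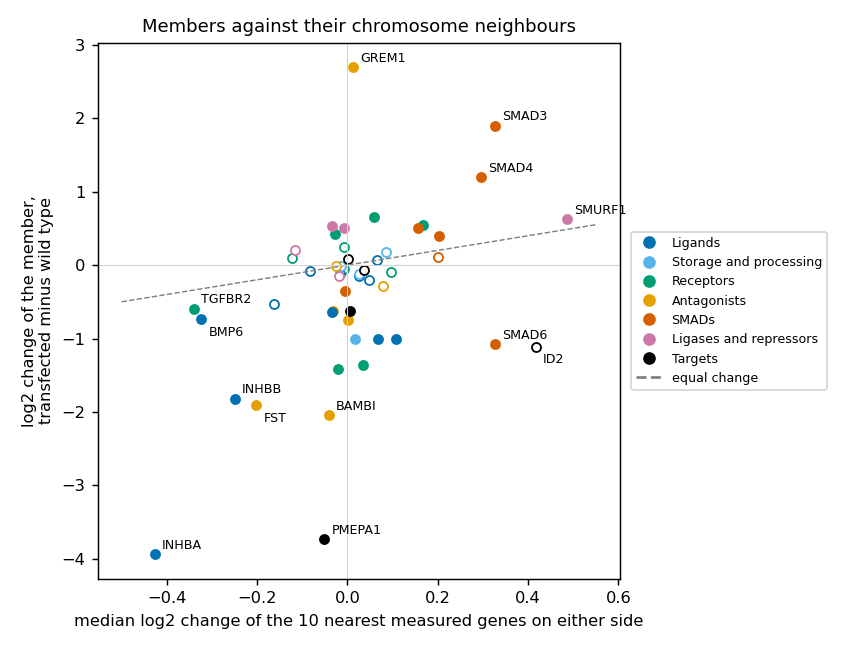
Log2 change of each of 50 members (vertical, NF1-C2S transfected minus wild type) against the median log2 change of the 10 nearest measured genes on either side (horizontal), coloured by role and filled where the adjusted p was under 0.05; the dashed line marks equal change. SMURF1, at 0.63 against 0.48, lies near the line, and GREM1, PMEPA1 and BAMBI lie far from it with neighbours near 0.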

How the data were processed

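Expression was measured on Affymetrix arrays in 3 NF1-C2S transfected and 3 wild type samples of MDA-MB-436. The authors deposited log2 values per probe set, made with RMA per the submitters' processing notes; its version is not stated there. This method shrinks differences between low signals. Values ranged from 2.35 to 14.62, and array medians from 4.8 to 4.86. Arrays have no read depth, and their number limits the precision.

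The 62 control probe sets were left out. Members and gene lists were chosen with earlier results of these data known. A gene was represented by its brightest probe set among those naming only that gene. Of the other pathway genes, GDF1, LEFTY2, AMH and USP15 had none and were read by their brightest shared probe set. The shares over all genes used only probe sets that name a single gene. Groups were compared with limma 3.58.1 in R 4.3.3 over all 54613 probe sets (two-sided, Benjamini-Hochberg adjustment, threshold 0.05); the fit was tested on simulated data. Changes are transfected minus wild type. All members are named; the value of every array is given where a called change was at least 1 on the log2 scale, and of the other pathway genes the 3 largest rises and falls. Gene order came from a table of assembly GRCh38.p14.

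Arrays sharing a replicate number deviated together from their group means, with correlations of 0.398, 0.238 and 0.140 over probe sets for numbers 1, 2 and 3. Arrays with different numbers gave -0.277 to 0.142, the highest being transfected 3 with wild type 2, above the same-numbered pair 3. The numbers come from the labels, and what they stand for is not given there. The fit without the pairing is reported. Alternatives were other normalizations, variance models, filters, probe set choices, a stricter threshold, the replicate block, subtraction of the neighbours' shift, and leaving out each array.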

Additional observations from a re-analysis of the deposited data

How the results depend on the processing

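Of the 29 called members, 17 kept call and direction under every alternative run for them and 12 lost the call under at least 1. That was 18 alternatives for 14 of the 17, and 17 for LTBP1, FSTL3 and ID1, whose probe sets all end in _s_at or _x_at. The count of members lower in transfected cells was 14 to 19 over the alternatives, and that of members higher was 8 to 12 except at an adjusted p of 0.01, where it was 7. Leaving out 1 array gave 9 to 11 higher and 17 to 18 lower members. When probe sets whose names end in _x_at or _s_at were dropped, 19 member probe sets were lower in place of 34, because fewer were tested. SMAD6, then read by a probe set dim in both groups, gave 0.07 and was not called, and the SMAD median gave 0.11. The target median of -1.80 then rested on PMEPA1 at -3.73 and a dim ID4 probe set at 0.14, the only targets left. With the mean of a gene's probe sets, BMPR2 gave -0.0028 and was not called, and the medians of ligands, antagonists, and ligases and repressors shrank to -0.26, -0.29 and 0.18. With the shift of neighbouring genes subtracted, the medians of ligands, SMADs, and ligases and repressors were -0.34, 0.20 and 0.27. The target median was -1.12 when dim probe sets were left out, since fewer targets remained. The replicate block gave 11 higher and 19 lower members and changed no call other than that of GDF15. Signal near background limits NOG, CHRD, INHBE, ID3 and ID4, which were dim in both groups.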
